A study of Mus musculus with 44 samples.

Results

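The 7 genes described here belong to the vitamin K system: the Gla protein genes Mgp, Ucma, Gas6 and Pros1, the carboxylase gene Ggcx, and the reductase genes Vkorc1 and Vkorc1l1. They were found by symbol in the count table, where all 7 of the 46831 genes used were present once. Sorted skeletal cells of P3 (postnatal day 3) C57BL/6J mice had been profiled by RNA-seq (input) and by SLIM-seq, in which m6A-bearing RNA is pulled down with an anti-m6A antibody (IP). The stem and progenitor populations were SSC (skeletal stem cells), pre-BCSP and BCSP (bone, cartilage and stromal progenitors and their precursors), and the downstream populations were PCP (pro-chondrogenic progenitors), THY, BLSP (B-cell lymphocyte stromal progenitors), 6C3 and HEC (cells expressing hepatic leukemia factor). Each population came as WT in 2 input and 2 IP libraries, and SSC, pre-BCSP and BCSP also as Mettl3cko in the same numbers, which gave 44 libraries in 22 groups.

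By the study's methods, Mettl3cko mice were Mettl3 fl/fl with a Col2a1-Cre transgene, which acts in cells that use the collagen II promoter, and WT mice were Mettl3 fl/fl without Cre. In that comparison both genotypes therefore carried the floxed allele. Because GEO's genotype field gives wild type for all 44 libraries, the titles were used to assign the genotype. Mice of both sexes were used. The Mettl3 level in input was above WT in SSC and pre-BCSP labelled Mettl3cko and below it in BCSP. It was 17.03 and 18.8 CPM (counts-per-million, scaled by TMM) in the SSC libraries labelled Mettl3cko against 15.8 and 15.9 in WT, 23.0 and 23.5 against 12.5 and 16.6 in pre-BCSP, and 16.7 and 18.4 against 18.6 and 20.3 in BCSP, and it did not pass over the 3 populations (log2 0.25 ± 0.17, SE; edgeR adjusted p = 0.449). The counts cover the whole gene and the sources used here do not say which exons are deleted, so these counts are no test of the deletion. The study checked Mettl3 by other assays, which are not analysed here. The groups are called libraries labelled Mettl3cko below.

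Vitamin K dependent proteins are secreted or membrane proteins whose glutamate residues are converted to gamma-carboxyglutamate (Gla), which binds calcium. The carboxylase GGCX makes Gla in the endoplasmic reticulum and oxidises vitamin K hydroquinone to the epoxide in the same step, and VKORC1 reduces the epoxide back, the step that warfarin blocks. VKORC1L1 is its paralog. In cartilage, MGP (matrix Gla protein) and UCMA (upper zone of growth plate and cartilage matrix associated protein, also called Gla-rich protein) are matrix proteins linked to the control of calcification, while GAS6 and PROS1 (protein S) are ligands of the TAM receptors TYRO3, AXL and MERTK, and protein S is also a cofactor of anticoagulant protein C.

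The coding bases of the Gla motif are shown because they are a sequence feature that 3 of the Gla protein genes share. The motif is a glutamate, any 3 residues, a second glutamate, any residue and a cysteine. Capitals mark the codons of both glutamates and the cysteine, read 5′ to 3′ from the GENCODE transcripts of GRCm38 and starting at codon 67 of Mgp, 61 of Gas6 and 57 of Pros1.
Mgp: GAGatcaacagaGAGgccTGC
Gas6: GAGtgcgtggagGAGgtgTGC
Pros1: GAGtgcattgaaGAActcTGC
The motif was not found in the translation of Ucma, Ggcx, Vkorc1 or Vkorc1l1, and 5.47% of 21866 coding genes held it. A match is a description of letters and no evidence of carboxylation.

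The genes lie on 6 chromosomes of GRCm38. Mgp (ENSMUSG00000030218.2) is at chr6:136872435-136875823 on the minus strand, and Ggcx (ENSMUSG00000053460.8) is on the same chromosome at chr6:72414308-72430712, plus strand. Ucma (ENSMUSG00000026668.10) is at chr2:4976122-4985748, plus strand. Gas6 (ENSMUSG00000031451.6) is at chr8:13465374-13494490, minus strand, and its exons overlap those of Tmem255b on the other strand by 34 bases. Pros1 (ENSMUSG00000022912.8) is at chr16:62854307-62929346, plus strand. Vkorc1 (ENSMUSG00000096145.2) is at chr7:127893063-127895617, minus strand, and shares 401 exonic bases with Gm21974 on the same strand. Gm21974 was listed at 0 in all 44 libraries, and how reads in the shared bases were counted is not given in the sources used here, so the level of Vkorc1 is uncertain. Vkorc1l1 (ENSMUSG00000066735.8) is at chr5:129941970-129986692, plus strand. The libraries were fragmented with Tn5 and carry no strand, so reads of overlapping genes on opposite strands cannot be told apart.

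Library totals ran from 19795666 to 44046651 counts in input and from 16480027 to 35856651 counts in IP. The sort antigens followed the population labels: Thy1 averaged 20.8 to 27.4 CPM in PCP, THY and BLSP and at most 0.273 CPM elsewhere, and Enpep, which encodes the 6C3 antigen, averaged 42.0 CPM in 6C3 and 53.3 CPM in HEC against at most 6.32 CPM elsewhere. The summed level of 8 chondrocyte markers was 94102 to 113640 CPM in the 6 WT stem and progenitor inputs and 7703 to 99317 CPM in the 10 downstream inputs. HEC (77316 and 99317 CPM) and 6C3 (42941 and 86231 CPM) stood at the top of that downstream range. The 6 osteoblast markers summed to 5526 to 11598 CPM in the stem and progenitor inputs and to 62366 to 141550 CPM downstream. Col1a1 alone averaged 5003 to 11390 CPM in the stem and progenitor populations and 68923 to 133530 CPM downstream. The other markers of the list did not share this split. Ibsp averaged 1254 CPM in SSC and 2449 in BCSP but 63.1 in pre-BCSP, and 1886 in PCP but 7.44 in THY. Alpl averaged 387 CPM in SSC, 516 in BCSP, 25.9 in pre-BCSP, 390 in PCP and 43.8 in HEC. Blood cell markers (7 genes, including Ptprc) summed to at most 101 CPM in any WT input, and endothelial markers (5 genes) to at most 86.0 CPM, in PCP.

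The first question was how the vitamin K genes vary across the skeletal hierarchy. Mgp and Ucma were highest in the stem and progenitor populations, Gas6 was highest downstream, and the enzymes differed far less. Of the 7 genes, 6 differed across the 8 WT populations (edgeR's quasi-likelihood F test, adjusted p under 0.05), against 40.1% of all 20060 genes tested. In the contrast of the 3 stem and progenitor populations with the 5 downstream ones, 5 of 7 genes passed, Mgp, Ucma and Vkorc1 higher and Gas6 and Ggcx lower in the stem and progenitor populations, against 51.4% of all genes. All 7 genes passed the filter on low counts in every fit. Some genes below had stem and progenitor libraries that did not overlap with the downstream ones. The share of all genes with such a separation was not computed.

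**Figure D1:**
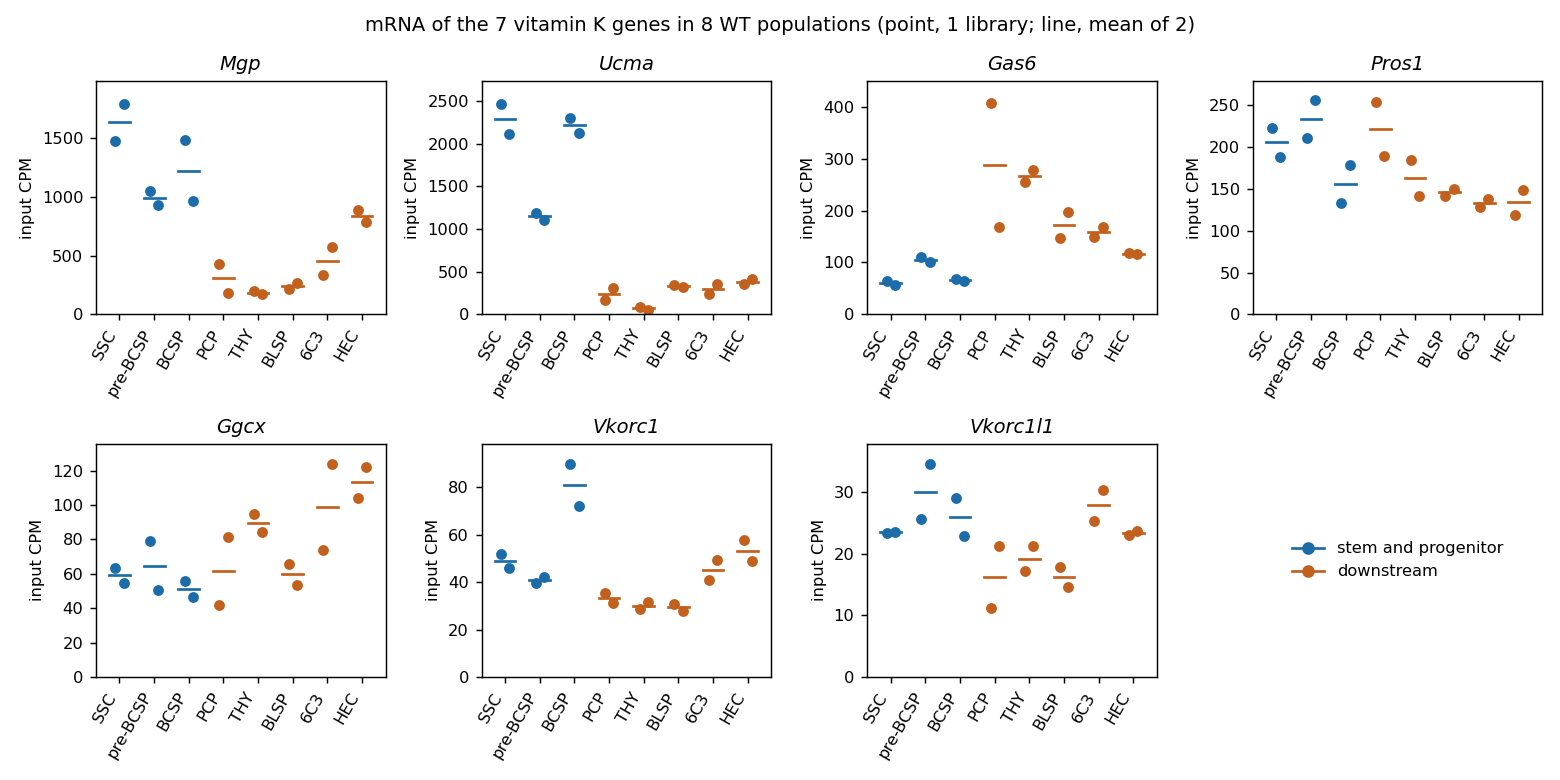
Level of each of the 7 genes in the input libraries of 8 WT populations, in CPM on a linear axis that starts at 0. Each point is 1 library and each line the mean of 2; blue marks stem and progenitor and orange downstream populations. The blue points of Mgp and Ucma all lie above the orange ones, and those of Gas6 all lie below.

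Mgp read 1477 and 1796 CPM in SSC, 965 and 1484 in BCSP, and 929 and 1049 in pre-BCSP. Downstream it read 784 and 893 CPM in HEC, 333 and 578 in 6C3, 181 and 431 in PCP, 219 and 265 in BLSP, and 171 and 197 in THY. The 6 stem and progenitor libraries lay above all 10 downstream libraries, with HEC next below them. SSC, BCSP and pre-BCSP overlapped their neighbours in the order, as did 6C3, PCP and BLSP. Mgp was 3.40-fold higher in the stem and progenitor than in the downstream populations (log2 1.76 ± 0.17, SE; edgeR adjusted p = 3.47e-07).

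Ucma had the widest range of the 7 genes, with a mean 32.4-fold higher in SSC than in THY. It read 2112 and 2457 CPM in SSC, 2125 and 2302 in BCSP, and 1109 and 1191 in pre-BCSP. The downstream libraries held 349.5 and 410.25 CPM in HEC, 318 and 346 in BLSP, 244 and 356 in 6C3, 167 and 308 in PCP, and 55.6 and 85.3 in THY. No downstream library reached the lowest stem and progenitor library, and SSC and BCSP did not differ beyond their spread. Ucma was 7.39-fold higher in the stem and progenitor populations (log2 2.88 ± 0.14, SE; edgeR adjusted p = 3.48e-10). In HEC, whose chondrocyte marker sum overlapped that of the stem and progenitor inputs, Mgp was just below the pre-BCSP range, whereas Ucma did not exceed 410.25 CPM. The markers of that list did not move together in HEC. Col2a1 averaged 72768 CPM there against 75669 to 79186 in the stem and progenitor populations, and Sox9 5803 against 5143 to 6432. Matn1 averaged 3.35 CPM in HEC against 1161 to 1619, and Matn3 186 against 1980 to 2848. Acan, Col9a1, Comp and Hapln1 were also lower, by smaller folds. The part of chondrocyte content in the differences of Mgp and Ucma was not tested, and in sorted bulk samples fewer cells of a type and less RNA per cell cannot be told apart.

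Gas6 ran the other way. It read 168 and 407 CPM in PCP, 255 and 278 in THY, 146 and 197 in BLSP, 149 and 169 in 6C3, and 116 and 118 in HEC. The stem and progenitor libraries held 101 and 109.99 CPM in pre-BCSP, 64.8 and 68.9 in BCSP, and 56.2 and 64.5 in SSC. The groups did not overlap, though HEC and pre-BCSP were close, and both PCP libraries lay far apart. The stem and progenitor mean was 0.375 of the downstream mean (log2 −1.42 ± 0.15, SE; edgeR adjusted p = 1.47e-06).

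Pros1, the second TAM ligand, did not share this pattern. Its libraries covered a narrow range, from 119 CPM in HEC to 256 CPM in pre-BCSP, and 6 of its 7 neighbouring pairs of populations overlapped. The highest means were in pre-BCSP (233 ± 32.5 CPM, SD, 2 libraries), PCP (222 ± 45.4) and SSC (206 ± 24.3). The stem and progenitor difference did not pass (log2 0.24 ± 0.11, SE; edgeR adjusted p = 0.0910). Its difference across the 8 populations passed with an adjusted p of 0.0318 (edgeR) and was lost when the second pre-BCSP, the first PCP, either BLSP or the first HEC library was left out, with an adjusted p of up to 0.0757. Without the first BCSP library the stem and progenitor difference passed (edgeR adjusted p = 0.0481).

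Of the enzymes, Ggcx was highest in HEC, with 104 and 122 CPM, in 6C3, with 74.2 and 124 CPM, and in THY, with 84.1 and 94.6 CPM. It was lowest in BCSP, with 46.8 and 55.6 CPM, and SSC, with 54.7 and 63.6 CPM. The stem and progenitor mean was 0.668 of the downstream mean (log2 −0.58 ± 0.16, SE; edgeR adjusted p = 0.00757), and the groups overlapped. The difference of Ggcx across the 8 populations (edgeR adjusted p = 0.0294) was lost without the first THY library or either HEC library, with an adjusted p of up to 0.0849.

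Vkorc1 was highest in BCSP, at 72.0 and 89.7 CPM, above every other library. The next populations were HEC (48.8 and 57.8 CPM), SSC (45.8 and 51.7), 6C3 (40.9 and 49.5) and pre-BCSP (39.8 and 42.3), while PCP, THY and BLSP stayed between 28.0 and 35.6 CPM. Stem and progenitor populations were 1.38-fold higher (log2 0.47 ± 0.10, SE; edgeR adjusted p = 0.00104). Vkorc1l1 read 11.2 to 34.5 CPM in the 16 WT inputs, and neither its difference across populations (edgeR adjusted p = 0.165) nor its stem and progenitor difference (log2 0.31 ± 0.15, SE; adjusted p = 0.0975) passed. Without the second PCP library both passed, with edgeR adjusted p of 0.0222 and 0.0132.

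Per kilobase of exon, a scale that allows a rough comparison of levels between genes, the matrix genes had the highest medians. The length was the union of all annotated exons. It can exceed a single transcript, with 1187 bases against 617 for Mgp and 5262 against 3112 for Vkorc1l1. The order of close medians, such as those of Gas6 and Vkorc1, may therefore depend on the length used. The median over the 16 WT inputs was 574 CPM per kb for Mgp and 399 for Ucma, against 51.8 for Gas6, 49.5 for Vkorc1, 40.2 for Pros1, 21.6 for Ggcx and 4.42 for Vkorc1l1. The medians did not separate all libraries: the highest Gas6 library, at 159.6 CPM per kb, was above the lowest Mgp library, at 144, and the lowest Ucma library, at 63.0, and in THY Gas6 averaged 105 against 79.7 for Ucma. Vkorc1l1 never exceeded 6.56 CPM per kb, and the lowest Vkorc1 library held 33.4. Mgp took 0.0186% to 0.171% of all counts of a WT input.

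Across the 8 population means of log2 CPM, the genes most like Mgp among 13766 genes at a mean of 1 CPM or more were Scin (Pearson r = 0.991), Tns2 (0.987) and Acsf2 (0.986). Scin, the actin-severing protein adseverin, averaged 137 CPM in SSC and 10.9 CPM in THY. Those most like Ucma were Mapk1ip1 (0.996), Ggact (0.993) and RP23-85B15.7 (0.992). Those most like Gas6 were Hic1 (0.993), which encodes a transcriptional repressor, Meox1 (0.990), a mesoderm homeobox gene, and Ltbp4 (0.989), a TGF-beta binding matrix protein that averaged 699 CPM in THY and 63.9 CPM in BCSP. For Pros1 the likeness was lower, with Wdpcp (0.955), Slu7 (0.936) and Tpst2 (0.933). Between members, Mgp and Ucma correlated at 0.913, and Gas6 at −0.947 with Mgp and −0.944 with Ucma. These are descriptions over 8 points that share libraries and scaling.

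The other genes of the pathway came from lists that were chosen with results of these data known. Of 13 other Gla protein genes 10 were tested, and in the contrast of stem and progenitor with downstream populations 4 passed as higher and 3 as lower, 7 of 10 against the 51.4% of all genes, with a median log2 of −0.41 against −0.11 over all genes. Higher were Bglap (log2 2.31 ± 0.35, SE) and Bglap3 (log2 1.45 ± 0.30, SE), osteocalcin genes that are near-identical copies of each other, so the split of their counts is uncertain. Bglap read 27.3 and 27.5 CPM in SSC, and 20.4 and 107 CPM in BCSP, but only 0.821 and 1.83 CPM in pre-BCSP, and it read 16.2 and 48.6 CPM in PCP downstream, so the groups overlapped. Lower were Prrg4 (log2 −2.45 ± 0.45, SE) and Prrg3 (log2 −3.05 ± 0.36, SE; edgeR adjusted p = 3.09e-06), which encode transmembrane Gla proteins. Prrg3 read 0.559 to 7.10 CPM in stem and progenitor inputs and 6.54 to 24.0 CPM downstream. The clotting factor genes F7, F9 and F10, made mainly in liver, did not pass the filter in this fit and stayed at or below 0.457 CPM in all WT inputs.

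Of the genes that reduce quinones, Nqo1, a quinone reductase, was higher in the stem and progenitor populations. It read 30.7 to 43.4 CPM in the 6 stem and progenitor inputs and 5.16 to 9.35 CPM in the 10 downstream ones, with no overlap (log2 2.26 ± 0.13, SE; edgeR adjusted p = 1.68e-09). Of the 3 receptors, Axl passed. It read 70.1 to 299 CPM in the stem and progenitor inputs and 289 to 877 CPM downstream, highest in THY (log2 −1.72 ± 0.12, SE; edgeR adjusted p = 9.01e-09), the same direction as its ligand gene Gas6. Tyro3 and Mertk, at 3.65 to 11.1 and 11.4 to 31.0 CPM in the WT inputs, did not pass.

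The second question was how strongly the anti-m6A IP enriched each mRNA. Mgp and Vkorc1 were enriched and Gas6, Pros1 and Ggcx were depleted in the IP, and the direction was the same in all 16 WT replicate pairs for each of these genes and for Ucma. The share of all genes with a constant direction was not computed. A gene was called m6A-tagged in a population where IP exceeded input by a log2 difference over 1 with p under 0.05 (edgeR, 1 fit for each population), the thresholds of the study. By this rule Mgp was tagged in 8 of 8 populations, Vkorc1 in 6, and the other 5 genes in none, 14 calls of 56. Of all tested genes, the share called was 10.4% in SSC, 12% in pre-BCSP and 6.67% in BCSP. Downstream it was 10.6% in PCP, 12.4% in both THY and BLSP, 13.5% in HEC and 14.5% in 6C3.

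**Figure D2:**
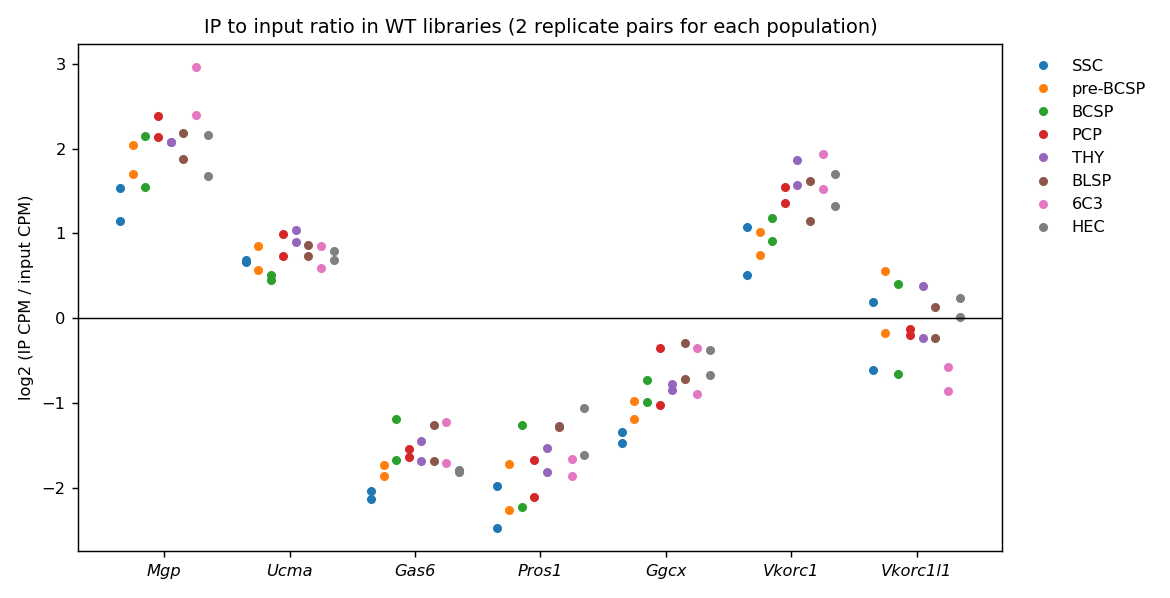
Log2 ratio of IP CPM to input CPM for each gene in the WT libraries, with 2 points for each of 8 populations (colours) and a line at 0. All 16 points of Mgp, Ucma and Vkorc1 lie above 0, all 16 of Gas6, Pros1 and Ggcx lie below it, and those of Vkorc1l1 lie on both sides.

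The log2 IP to input ratio of Mgp was 1.14 and 1.53 in SSC, 1.70 and 2.04 in pre-BCSP, 1.55 and 2.15 in BCSP, 2.14 and 2.38 in PCP, 2.08 in both THY pairs, 1.87 and 2.19 in BLSP, 1.68 and 2.16 in HEC, and 2.96 and 2.40 in 6C3. SSC had the lowest pair and 6C3 the highest, and these did not overlap. In the separate fits the edgeR log2 difference ran from 1.46 to 2.64, with an adjusted p between 0.000177 and 0.0439. Averaged over the 8 populations, IP exceeded input 3.90-fold (log2 1.96 ± 0.12, SE; edgeR adjusted p = 4.86e-14).

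Vkorc1 was enriched by a log2 difference of 0.94 in SSC to 1.77 in 6C3, and its ratios in single replicate pairs ran from 0.51 to 1.94. It missed the threshold in SSC (0.94 ± 0.31, SE) and pre-BCSP (0.96 ± 0.19, SE), and passed there at 1.24 and 1.03 without the second IP library. The call in BCSP (1.1 ± 0.28, SE) was lost without the second input (0.95) or the first IP library (0.78). Its mean over the 8 populations was 2.45-fold (log2 1.30 ± 0.09, SE; edgeR adjusted p = 1.17e-12). Ucma was also higher in IP in every pair, with ratios of 0.46 to 1.04, and was below the threshold in all 8 populations. It exceeded it in PCP without the second input library (1.23), in THY without the first input (1.33) or second IP library (1.18), and in 6C3 without the first IP library (1.12). Its average was 1.63-fold (log2 0.71 ± 0.10, SE; edgeR adjusted p = 7.07e-07).

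Gas6 and Pros1 were depleted from the IP to a similar degree, Gas6 with ratios of −2.13 to −1.19 on the log2 scale and Pros1 with ratios of −2.47 to −1.05. Averaged over the populations, the IP level was 0.313 of input for Gas6 (log2 −1.68 ± 0.12, SE; edgeR adjusted p = 7.02e-13) and 0.301 for Pros1 (log2 −1.73 ± 0.12, SE; edgeR adjusted p = 9.28e-13). Ggcx was depleted less, with an average of 0.550 (log2 −0.86 ± 0.10, SE; edgeR adjusted p = 4.36e-08). Vkorc1l1 did not depart from input (log2 −0.12 ± 0.14, SE; edgeR adjusted p = 0.627). On this average, 9.59% of 25365 genes lay above log2 1 with an adjusted p under 0.05, as did Mgp and Vkorc1, and 15.5% lay below −1, as did Gas6 and Pros1. The average was added after the data had been seen.

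The IP to input ratio varied with transcript length, without rising or falling steadily (Spearman rho −0.008 across 17377 genes, a description). The representative transcripts of Mgp (617 bases), Vkorc1 (748) and Ucma (847) are short, and the genes that were depleted or level have transcripts of 2548 to 3303 bases. Over all genes tested, the median log2 ratio was 1.38 for transcripts of up to 500 bases, 0.92 for 500 to 1000, −0.22 for 1000 to 2000, −0.67 for 2000 to 3000, −0.54 for 3000 to 4000, −0.21 for 4000 to 6000 and 0.37 for over 6000 bases. Ucma lay within the quartiles of its length class (0.23 to 1.48), as did Vkorc1, whereas Mgp was above the upper quartile. Gas6 and Pros1 were below the lower quartiles of their classes (−1.40 and −1.26), and Ggcx and Vkorc1l1 were within theirs. The part of transcript length in the ratios was not tested, and 68.5% of the genes tested had a representative coding transcript.

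**Figure D3:**
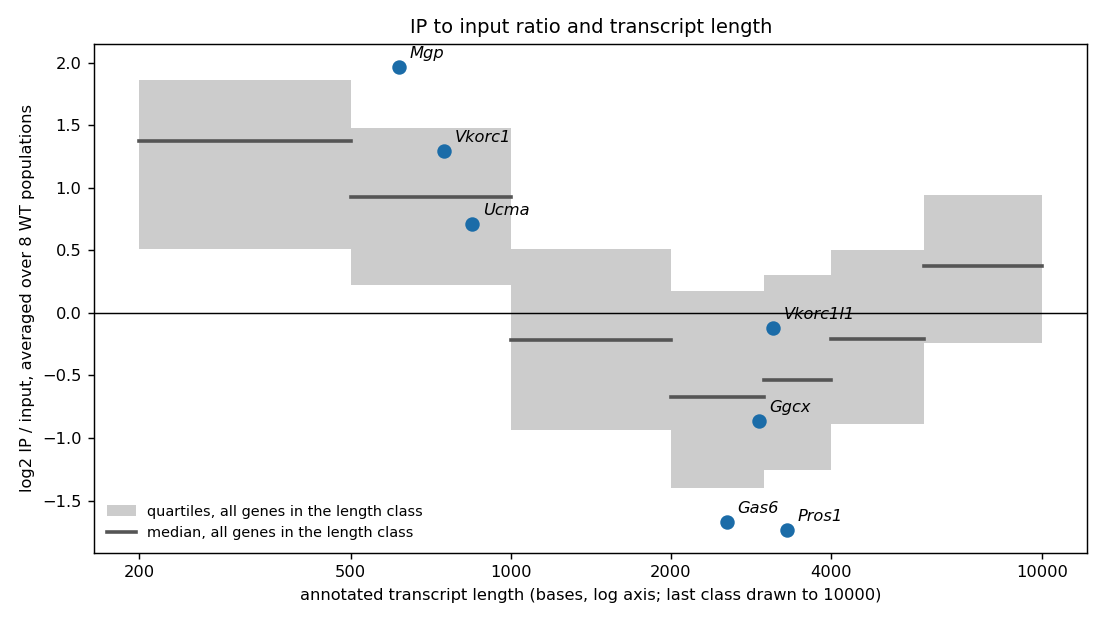
Log2 IP to input difference averaged over 8 WT populations (vertical axis) against the length of the annotated transcript in bases (horizontal log axis). Grey boxes and lines give the quartiles and median of all genes in a length class and blue points the 7 genes. Mgp lies above and Gas6 and Pros1 lie below the quartiles of their classes.

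The sequence GGAC, the core of the context in which METTL3 is known to methylate adenosine, was counted in the sense strand of each representative transcript. Mgp, the most enriched of the 7, held a single GGAC and no GGACT, while Gas6 held 10, Pros1 8, Ggcx 14, Ucma 5, Vkorc1l1 4 and Vkorc1 3. Of all coding transcripts 98.2% held GGAC and 86.8% GGACT, and the median density was 3.98 GGAC per kb, against 1.29 in Vkorc1l1, 1.62 in Mgp, 2.42 in Pros1, 3.92 in Gas6, 4.01 in Vkorc1, 4.78 in Ggcx and 5.90 in Ucma. GGAC is only part of the wider consensus (any base but C, a purine, A, C, any base but G), of which Mgp held 8 matches, 12.97 per kb against a median of 20.34. The order of the 7 genes by IP to input ratio was thus not their order by this motif. The only GGAC window of Mgp and the windows of Ucma that read GGACT, all in 5′ UTRs, are shown with GGAC in capitals.
Mgp, bases 70 to 90 of the transcript: gactcacaGGACacccgagac
Ucma, bases 1 to 21: agaagtgaGGACttactgggc
Ucma, bases 33 to 53: agtactggGGACttccaagat
The counts give 1 value for a whole gene and do not place a methylated base.

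Whether the IP to input ratio differed between the 8 WT populations was tested as an interaction. None of the 7 genes passed (edgeR, adjusted p from 0.983 to 1), against 0.485% of 25365 genes, and none had an unadjusted p under 0.05. DESeq2's likelihood ratio test also called none of the 7, where it called 1004 of all genes. These fits did not pair IP with input, although by the study's methods cells of a sort were split between both. With the replicate number as a block, which pairs each IP with the input of the same number, Mgp alone of the 7 passed (edgeR adjusted p = 0.0430), and 923 genes passed in place of 123.

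Among the other Gla protein genes, Bglap was called m6A-tagged in 6 of the 8 populations, with log2 differences of 1.58 in SSC to 3.04 in 6C3. Its WT input averaged 27.4 CPM in SSC but 0.804 in 6C3, so the highest difference rests on a low level. Of the list, 3 of 7 tested genes were called in SSC, 1 of 8 in pre-BCSP, 0 of 6 in BCSP and 4 of 8 in PCP. THY had 3 of 9, BLSP 3 of 10, 6C3 4 of 9 and HEC 1 of 8, beside the shares of all genes given above. Nqo1 and the 3 receptors were tagged in no population.

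The third question was how the genes differed in libraries labelled Mettl3cko. Mgp was lower and Pros1 and Ggcx were higher in the fit over SSC, pre-BCSP and BCSP with population as a covariate, 3 of 7 genes against 6.47% of the 18655 genes tested (edgeR adjusted p under 0.05). This fit counted its 12 input libraries as independent. Whether the 3 populations of a replicate number came from the same animals is not given, and if they did, its p-values are too small. Among libraries labelled Mettl3cko, the first replicate was the lower for Mgp and Pros1 in all 3 populations, and for Ggcx in pre-BCSP only. In input, Mgp, Pros1 and Ggcx had groups that did not overlap in any of the 3 populations. These genes passed a fit of the same libraries, so the separation is no added support. The share of all genes without overlap was not computed. The study's rule for a single population (log2 beyond 0.5 either way and unadjusted p under 0.05) called 12 of 21 tests, 4 in SSC, 3 in pre-BCSP and 5 in BCSP, against 14%, 8.36% and 12.9% of all genes. None of the 12 passed with an adjusted p under 0.05 (edgeR). The WT libraries of these populations are the ones described above. The study had already named Mgp, and also Bglap, among the m6A-tagged mRNAs that were lower in its Mettl3-deleted SSC. The members were chosen with earlier results of these data known, so the 3 of 7 is no independent support.

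**Figure D4:**
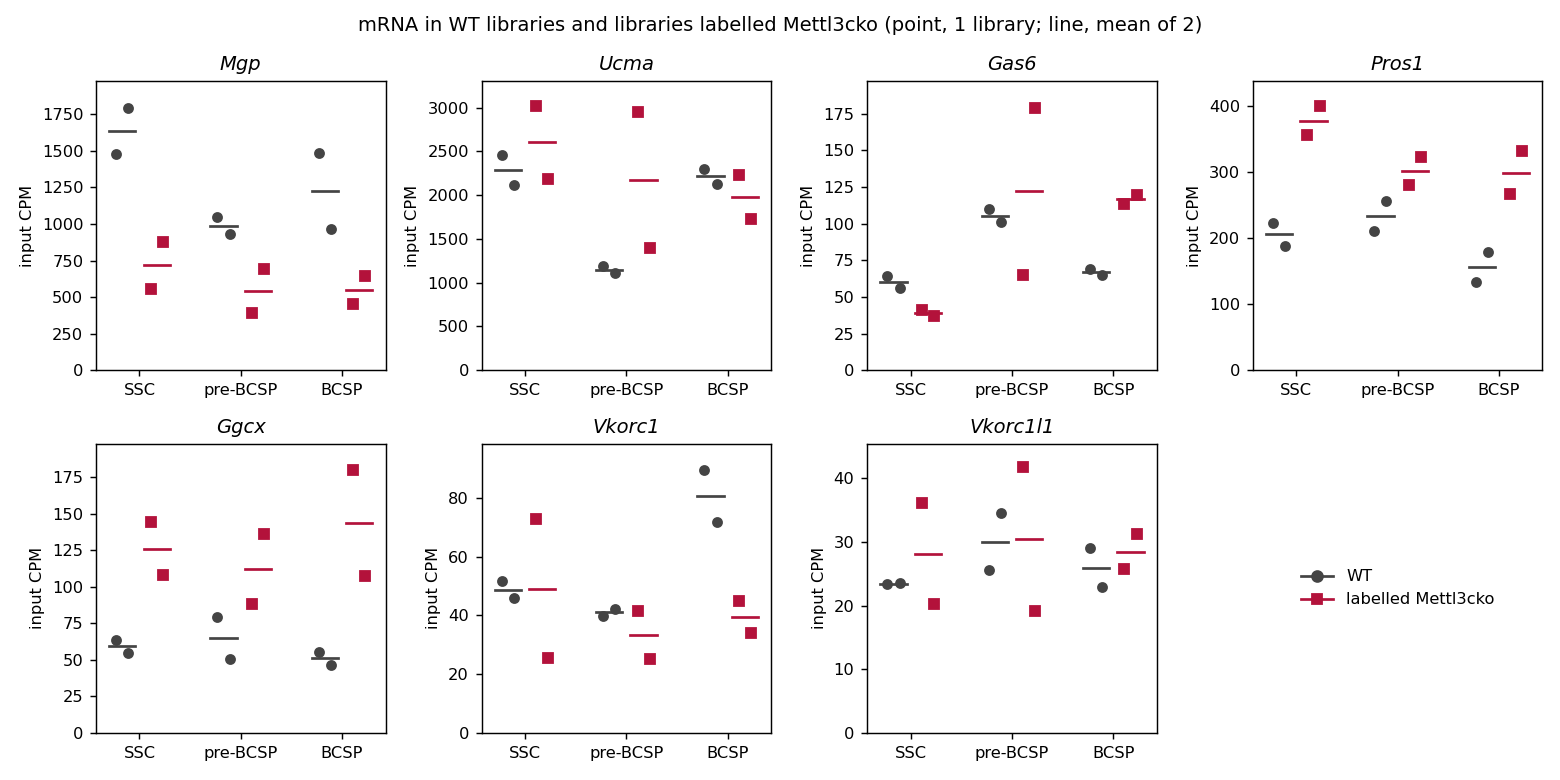
Input level of each gene in CPM, on a linear axis from 0, in WT libraries and libraries labelled Mettl3cko of SSC, pre-BCSP and BCSP. Each point is 1 library, with 2 in each group. The points labelled Mettl3cko lie below WT in all 3 populations for Mgp and above WT for Pros1 and Ggcx.

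Mgp read 555 and 877 CPM in the SSC libraries labelled Mettl3cko against 1477 and 1796 in WT, 392 and 695 against 929 and 1049 in pre-BCSP, and 454 and 646 against 965 and 1484 in BCSP. Over the 3 populations the level was 0.481 of WT (log2 −1.06 ± 0.18, SE; edgeR adjusted p = 0.00368). The single populations gave log2 −1.19, −0.84 and −1.16, and the call in pre-BCSP was lost without either WT library (−0.78 and −0.92) or the first library labelled Mettl3cko (−0.49). Even so, Mgp in these libraries stayed above the level of WT THY.

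Pros1 read 356 and 399.9 CPM in SSC against 189 and 223 in WT, 280.1 and 323 against 210.4 and 256 in pre-BCSP, and 267 and 331 against 133 and 179 in BCSP. The level was 1.68-fold that of WT (log2 0.75 ± 0.13, SE; edgeR adjusted p = 0.00570). In pre-BCSP alone the difference did not pass the study's rule (log2 0.39 ± 0.23, SE).

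Ggcx, the carboxylase, read 108 and 144 CPM in SSC against 54.7 and 63.6 in WT, 88.1 and 136 against 50.6 and 79.1 in pre-BCSP, and 107 and 179.9 against 46.8 and 55.6 in BCSP. The level was 2.2-fold that of WT (log2 1.14 ± 0.18, SE; edgeR adjusted p = 0.00317). Its call in pre-BCSP was lost without the second WT library (log2 0.53) or the second library labelled Mettl3cko (0.45).

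The reductases did not follow Ggcx. Vkorc1 read 33.9 and 44.9 CPM in BCSP against 72.0 and 89.7 in WT (log2 −1.04 ± 0.26, SE; edgeR adjusted p = 0.238), while its groups overlapped in SSC and pre-BCSP. Over the 3 populations it did not pass (log2 −0.43 ± 0.25, SE; edgeR adjusted p = 0.346), and it did without the first SSC library labelled Mettl3cko (log2 −0.72, adjusted p = 0.0451). In SSC that group held 25.4 and 72.8 CPM, and leaving out either library gave a call by the study's rule, at log2 −0.91 or 0.57. In pre-BCSP it was called without the first library labelled Mettl3cko (−0.69). Vkorc1l1 overlapped between genotypes in all 3 populations (log2 0.15 ± 0.20, SE; edgeR adjusted p = 0.741).

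Gas6 differed in opposite directions. It read 37.2 and 41.3 CPM in SSC against 56.2 and 64.5 in WT (log2 −0.61 ± 0.20, SE), and 114 and 119.7 CPM in BCSP against 64.8 and 68.9 (log2 0.80 ± 0.21, SE). In pre-BCSP the libraries labelled Mettl3cko held 65.0 and 179 CPM, on either side of the WT libraries. The SSC call was lost without the first WT library (−0.51) or the second library labelled Mettl3cko (−0.55), and in pre-BCSP it was called at 0.78 without the first and at −0.69 without the second library labelled Mettl3cko. Ucma read 1392 and 2952 CPM in pre-BCSP against 1109 and 1191 in WT (log2 0.94 ± 0.37, SE) and overlapped with WT in SSC and BCSP. That call was lost without either WT library (0.96 and 0.89) or the first library labelled Mettl3cko (0.29), and Ucma did not pass over the 3 populations (log2 0.33 ± 0.20, SE; edgeR adjusted p = 0.378).

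Whether the genotype difference itself varied between SSC, pre-BCSP and BCSP was tested as an interaction. None of the 7 genes passed (edgeR, adjusted p of 0.941 to 1), against 0% of all genes (839 of 18655 had an unadjusted p under 0.05), and DESeq2 called none of the 7 and 41 of all genes. Only Gas6 had an unadjusted p under 0.05, at 0.0451 with an adjusted p of 0.941 (edgeR).

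Of the marker sums, that of blood cells separated the genotypes over the 3 populations, and the others overlapped. The 7 blood cell markers summed to 26.9 to 53.6 CPM in the 6 inputs labelled Mettl3cko (median 38.6) and to 13.3 to 23.4 CPM in WT (median 18.2), with no overlap. In WT this low sum was mostly Cd68, which averaged 12.3 CPM in SSC, 14.1 in pre-BCSP and 6.52 in BCSP. Lyz2 averaged 3.52, 5.94 and 5.72 CPM, and Ptprc was at 0 in each. The sum was not split by gene in the libraries labelled Mettl3cko, so it is no measure of blood cell content. The chondrocyte marker sum was 59449 to 117390 CPM in the 6 inputs labelled Mettl3cko and 94102 to 113640 CPM in WT. Both pre-BCSP libraries labelled Mettl3cko (59449 and 68171 CPM) were below WT (96631 and 99420 CPM), and Col2a1 did not pass over the 3 populations (log2 −0.33 ± 0.16, SE; edgeR adjusted p = 0.237). Osteoblast markers summed to 4111 to 18938 CPM against 5526 to 11598 CPM, and in BCSP (13253 and 18938 CPM against 9229 and 10767 CPM) they did not overlap. The part of these markers in the differences of Mgp, Pros1 and Ggcx was not tested.

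In the other Gla protein genes, the rule for single populations called Bglap (log2 −2.53 ± 0.50, SE), Bglap2 and Bglap3 lower in SSC labelled Mettl3cko, 3 of 9 tested against 14% of all genes. In BCSP, Bglap was lower (−2.04 ± 0.83, SE) and Prrg3 higher (2.43 ± 0.81, SE), 2 of 8 against 12.9% of all genes, and none was called in pre-BCSP, against 8.36%. Over the 3 populations none of 10 passed (edgeR). No receptor passed over the 3 populations. Axl was called higher in BCSP (log2 1.33 ± 0.31, SE; edgeR adjusted p = 0.224).

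The last question was whether the IP to input ratio differed in libraries labelled Mettl3cko. None of the 21 tests passed (edgeR adjusted p under 0.05; 1 had an unadjusted p under 0.05), and 0% of all genes passed in each of SSC, pre-BCSP and BCSP, where 2505, 2087 and 1814 genes had an unadjusted p under 0.05. With DESeq2 none of the 21 passed either, while 1755, 983 and 717 of all genes did. The median log2 difference over all genes was −0.16, −0.26 and −0.10. Because each library was scaled by TMM, a ratio is relative to the other genes of its library. A loss of m6A shared by most genes would be largely scaled away, so these tests cannot show whether m6A was kept. The study reported lower m6A after Mettl3 deletion by dot blot, which is not analysed here. Relative to other genes, Mgp stayed enriched in the IP. Its log2 ratio was 2.19 and 3.23 in SSC labelled Mettl3cko against 1.14 and 1.53 in WT, 2.76 and 2.31 against 1.70 and 2.04 in pre-BCSP, and 2.14 and 2.25 against 1.55 and 2.15 in BCSP. The pairs did not overlap in SSC and pre-BCSP, and the tested differences were log2 1.56 ± 0.75, 0.54 ± 0.41 and 0.38 ± 0.42 (SE; edgeR adjusted p = 0.387, 0.667 and 0.859). With 2 pairs in each group, a lack of overlap is weak evidence. Its share over all genes was not computed, for Mgp or for the genes below.

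**Figure D5:**
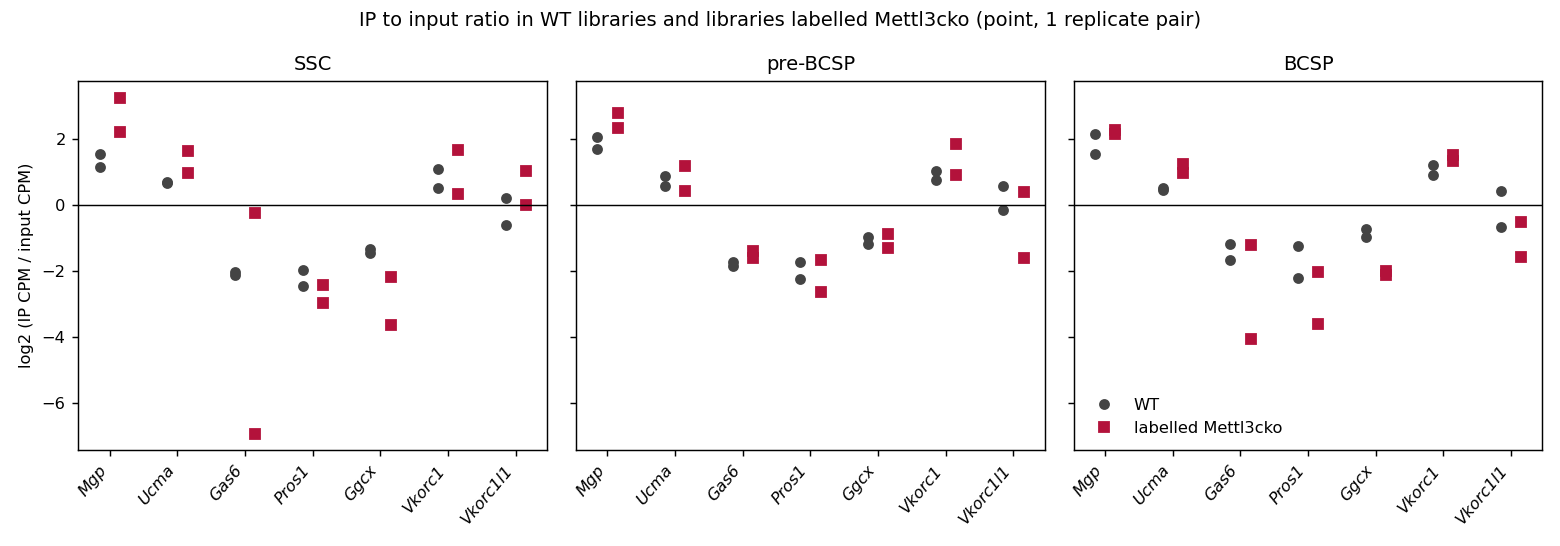
Log2 ratio of IP CPM to input CPM for each gene in replicate pairs of WT and of libraries labelled Mettl3cko, in SSC, pre-BCSP and BCSP, with a line at 0. The Mgp pairs labelled Mettl3cko lie between 2.14 and 3.23, and a Gas6 pair in SSC lies far below the rest.

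Ggcx was more depleted in SSC labelled Mettl3cko, with ratios of −3.63 and −2.17 against −1.47 and −1.34, and in BCSP, with −2.12 and −2.02 against −0.72 and −0.99. The differences were log2 −1.39 ± 0.62 and −1.25 ± 0.53 (SE; edgeR adjusted p = 0.358 and 0.482), and the latter had the unadjusted p of 0.0481. In pre-BCSP the pairs overlapped. In these populations the input of Ggcx was higher than in WT, while its IP levels overlapped with WT in SSC and BCSP. Ucma stayed above 0 in all 6 pairs labelled Mettl3cko (0.42 to 1.62) and did not overlap with WT in SSC and BCSP, with differences of log2 0.63 ± 0.31 and 0.62 ± 0.36 (SE; edgeR adjusted p = 0.392 and 0.594). Vkorc1 also stayed above 0 (0.33 to 1.85) but overlapped with WT in SSC, and Pros1 stayed below 0 (−3.60 to −1.68).

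The IP libraries labelled Mettl3cko varied more than the others. Their replicates correlated at 0.558 to 0.717, against 0.901 to 0.970 over the 8 WT populations. They held 12685 to 14415 detected genes, against 16250 to 18714 in the WT IP libraries of the same 3 populations. For Gas6, the second SSC IP library labelled Mettl3cko had 8 counts (0.307 CPM), the log2 ratios were −0.24 and −6.92, and the difference from WT had an SE of 2.03. Leaving out the first IP library gave a called difference for Mgp (log2 2.18, adjusted p = 0.0104) and Gas6 (−4.88), and leaving out the second gave one for Gas6 in the other direction (1.96, adjusted p = 0.0247) and for Ggcx (−1.98, adjusted p = 0.0226; all edgeR). In pre-BCSP, Vkorc1l1 passed without the first IP library labelled Mettl3cko (−2.54), and in BCSP, Gas6 passed without the second (−2.67).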

How the data were processed

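Postnatal skeletal cells sorted by FACS were profiled as input RNA and anti-m6A IP after Smart-seq2-based amplification, with 2 libraries in each of 22 groups. The authors trimmed reads with fastp 0.20.1, aligned them to GRCm38 (mm10) with HISAT2 2.2.1 and deposited raw read counts for each gene from featureCounts 2.0.1. The annotation, strand and overlap settings are not given in the sources used here. Groups were taken from the sample titles. The 128 entries under the date-like names 1-Mar and 2-Mar held at most 0.390% of a library and were left out.

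Counts were filtered with filterByExpr, scaled by TMM and tested with edgeR 4.0.16 (quasi-likelihood F test, Benjamini-Hochberg adjustment over all genes tested) in R 4.3.3. The WT populations were fitted together for mRNA and for the IP to input interaction, IP against input was fitted within a population, and genotypes were compared within a population and over SSC, pre-BCSP and BCSP with population as a covariate. The steps were tested on simulated data. Alternatives were DESeq2 1.42.0, its size factors, library size alone, no filter, all libraries in a single fit, a replicate block, and leaving out each library. CPM carry no pseudocount, and a prior count of 2 entered log2 CPM. Every member was named in every comparison, with Mettl3 and Col2a1 as checks, up to 4 called genes of each vitamin K list by smallest p, and the 3 genes most like Mgp, Ucma, Gas6 and Pros1. The other list genes named for their levels (F7, F9, F10, Tyro3, Mertk) were added after their values were seen. The members and lists were chosen with earlier results of these data known. One gene of the quinone list is not reported here.

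By the study's methods, cells of a sort were split between input and IP, and replicates were independent experiments. Deviations of same-numbered input and IP libraries from their group means correlated at 0.027 to 0.610 in WT, over 0.1 in 7 of 8 populations, and at 0.139 to 0.173 in libraries labelled Mettl3cko. Between genotypes the correlation was −0.046 to 0.075, so replicate numbers do not pair WT with Mettl3cko. With 2 libraries in a group, p-values rest on the spread shared across genes. Fits over several populations counted their libraries as independent, and whether populations of a replicate number shared animals is not given. Transcripts and coordinates came from GENCODE annotation of GRCm38.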

Additional observations from a re-analysis of the deposited data

Results flagged for a closer look

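The mRNA difference of Gas6 between libraries labelled Mettl3cko and WT was singled out because it had opposite signs in SSC and BCSP. Both SSC libraries labelled Mettl3cko (37.2 and 41.3 CPM) were below WT (56.2 and 64.5 CPM), and both BCSP libraries (114 and 119.7 CPM) were above WT (64.8 and 68.9 CPM). The interaction over SSC, pre-BCSP and BCSP had an unadjusted p of 0.0451 and an adjusted p of 0.941 (edgeR), and thus failed the correction over all genes.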

How the results depend on the processing

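Counts of called members were within 1.5 times the reported count under every alternative run, apart from 2 settings and single left-out libraries. With a replicate block, 1 of 7 members (Mgp) passed the test of the IP to input ratio across the WT populations, where the unpaired fit called 0, and 11 of the 12 calls for single populations between genotypes were made. The block changed no other count of members, and the cause was not tested. With an adjusted p in place of the unadjusted one, 0 of those 12 calls stood. Leaving out a library at a time gave 4 to 7 members differing across WT populations, 5 to 6 between stem and progenitor and downstream, 13 to 15 m6A-tagged calls, 0 differing in ratio across populations, 9 to 13 calls for mRNA between genotypes, 3 to 4 over the 3 populations, 0 for the interaction, and 0 to 2 for the ratio between genotypes. No call of the reported fits reversed its direction. Members not called there were called in opposite directions when either library labelled Mettl3cko was left out: Vkorc1 in SSC and Gas6 in pre-BCSP for mRNA, and Gas6 in SSC for the ratio. Where a group was left with 1 library, that library was taken to vary like the others.

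Counts over all genes moved more. The ratio across WT populations called 123 genes in the reported fit, 866 with no filter, 1004 with DESeq2 and 923 with the replicate block. The genotype comparison over the 3 populations called 1207 genes, 1973 with no filter, 2307 with DESeq2 and 2207 with all inputs in a single fit, and its interaction called 0, 80, 41 and 11, and 2 with the block. The ratio between genotypes called 0 genes in each population, and with no filter, DESeq2 and all libraries in a single fit 90, 1755 and 1112 in SSC, 476, 983 and 377 in pre-BCSP, and 129, 717 and 290 in BCSP. Of mRNA calls between genotypes, pre-BCSP had 1339, with 2244 without a filter and 2986 with all inputs, and BCSP 2111, with 3230 with all inputs. With all libraries in a single fit, m6A-tagged genes fell from 1963 to 1119 in PCP, 1974 to 1219 in THY, 2286 to 1032 in BLSP, 2450 to 1551 in 6C3 and 2241 to 1128 in HEC. Leaving out 1 library moved m6A-tagged genes to 791 to 3043 in SSC and, over all 8 populations, to between 564 (BCSP) and 3374 (BLSP), the ratio across WT populations to 106 to 633, mRNA calls between genotypes to 1020 to 3389 in SSC and 335 to 4456 in pre-BCSP, those over the 3 populations to 675 to 1286, and the ratio between genotypes to 0 to 4938 in SSC, so the shares over all genes printed beside the members' counts are themselves uncertain.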
